A study of Rattus norvegicus with 8 samples.

Results

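The muscle microRNAs (miRNAs) miR-206-3p, miR-133b-3p, miR-133a-3p and miR-1-3p were followed in C6 cells, a clonal rat glial tumour line, as 4 of the 719 miRNAs on the array. They were chosen by name and found by their systematic names (rno-miR-206-3p, rno-miR-133b-3p, rno-miR-133a-3p and rno-miR-1-3p) on an Agilent single-colour (Cy3) rat miRNA array. Cells were left untreated or received 1 of 3 antipsychotics each day for 5 days: haloperidol at 2 µg/ml, risperidone at 4 µg/ml or clozapine at 25 µg/ml. All 4 groups grew in the same medium, with horse serum and foetal bovine serum, and the labels name no vehicle for the untreated cells. Each group had 2 cultures on 1 array each, made from 100 ng of total RNA, which gives 8 arrays. All 8 arrays lay on 1 slide and were scanned together. Replicate 1 of every group lay in slide row 1 and replicate 2 in row 2, while each group had its own slide column, so column and group cannot be told apart.

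A miRNA is a short RNA that guides the silencing machinery to messenger RNAs, mainly through its seed, bases 2 to 8. In striated muscle, MyoD, myogenin, SRF and MEF2 switch these 4 on during differentiation. miR-1 and miR-206 push myoblasts to differentiate and repress Hdac4 and the gap junction protein connexin 43. The miR-133 pair represses SRF and has been linked to myoblast growth. miR-206 is largely confined to skeletal muscle, and none of the 4 is a marker of glia.

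The 4 mature sequences are shown because they form pairs with a common seed, and the array read the members of each pair differently. They are RefSeq's for rat genome build GRCr8, printed 5′ to 3′ with the seed in capitals, and all 4 names matched its table.
miR-206-3p: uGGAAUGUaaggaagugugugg
miR-1-3p: uGGAAUGUaaagaaguguguau
miR-133b-3p: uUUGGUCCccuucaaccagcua
miR-133a-3p: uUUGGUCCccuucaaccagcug

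Counted from 1 at the 5′ end, miR-133b-3p differs from miR-133a-3p by A22G alone and is identical at 21 of 22 positions. miR-206-3p differs from miR-1-3p by G11A, G21A and G22U, all outside the seed. The genes pair the other way. miR-206-3p (chr9:30590747-30590768, plus strand) and miR-133b-3p (chr9:30594629-30594650, plus strand) are separated by 3860 bases, within the span of the long non-coding RNA gene LOC120094648 and with Il17a as the next gene after Mir133b. miR-133a-3p (chr18:2157886-2157907, minus strand) and miR-1-3p (chr18:2160339-2160360, minus strand) are separated by 2431 bases within the span of Mib1, a ubiquitin ligase gene. The table of gene spans does not say whether these sites are exonic or intronic. RefSeq also places miR-3582 over the Mir133a1 gene and miR-3571 over Mir1, and the array detected each on 0 arrays.

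Each member had 2 probes with 10 spots each on every array. Summed signals are background-subtracted intensities as deposited, averaged over a probe's spots without outlier spots and summed over the 2 probes. Means, SDs and percentile ranks of a member's single probes are over all 10 spots, outlier spots included. Neither kind of signal is scaled between arrays, and both can be below 0. Arrays differed in brightness: the 75th percentile, taken over those 291 probes that every array read above background, ran from 388 on risperidone replicate 2 to 1480 on haloperidol replicate 1. The number of miRNAs detected was 193 on risperidone replicate 2, 203 on clozapine replicate 2 and 233 to 254 on the other 6. Of the 243 miRNAs tested, 79.4% and 83.5% were detected on those 2 arrays, and 95.1% to 99.2% on the others.

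The members split into a pair above background and a pair that was not. The deposited detection call was positive for miR-133b-3p on 6 arrays and for miR-206-3p on 5, and for miR-133a-3p and miR-1-3p on 0. Both detected members come from the chromosome 9 locus and both undetected ones from the chromosome 18 locus.

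For miR-206-3p the untreated cultures gave summed signals of 78.8 and 31.7, replicate 1 first. The signals were 62.4 and 8.37 under haloperidol, 26.6 and -3.9 under risperidone, and 27.9 and -2.0 under clozapine. In every group replicate 1 was the higher, and within each replicate the control was the highest of the 4 arrays. The detection call was negative on replicate 2 of all 3 drugs. On haloperidol replicate 2 it was negative although 10 of 10 spots of the brighter probe were positive and significant, with a mean of 6.77 ± 2.08 (SD over spots), and 0 of them were well above background. The same probe read 44.8 ± 4.01 and 18.7 ± 2.03 on the 2 control arrays, where all its spots were well above background. The other probe kept the order of the arrays, with 33.9 ± 3.90 and 12.3 ± 2.33 in controls and 25.6 ± 2.92 and 2.03 ± 1.71 with haloperidol. Spots of a probe are repeats on 1 array, not samples, so these SDs leave out the spread between cultures.

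For miR-133b-3p the summed signal was 69.5 and 43.0 in controls. It was 90.4 and 12.9 in haloperidol cultures, 38.7 and -2.2 in risperidone cultures and 25.5 and 1.32 in clozapine cultures. Haloperidol replicate 1 was the brightest array before scaling and also the array with the highest 75th percentile. The call was negative on replicate 2 of risperidone and clozapine. It was positive on haloperidol replicate 2, where 2 of 10 spots of the brighter probe and 0 of 10 of the other were well above background. Counting instead the arrays on which most of a member's spots were well above background gave 5 for miR-206-3p and 4 for miR-133b-3p.

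**Figure D1:**
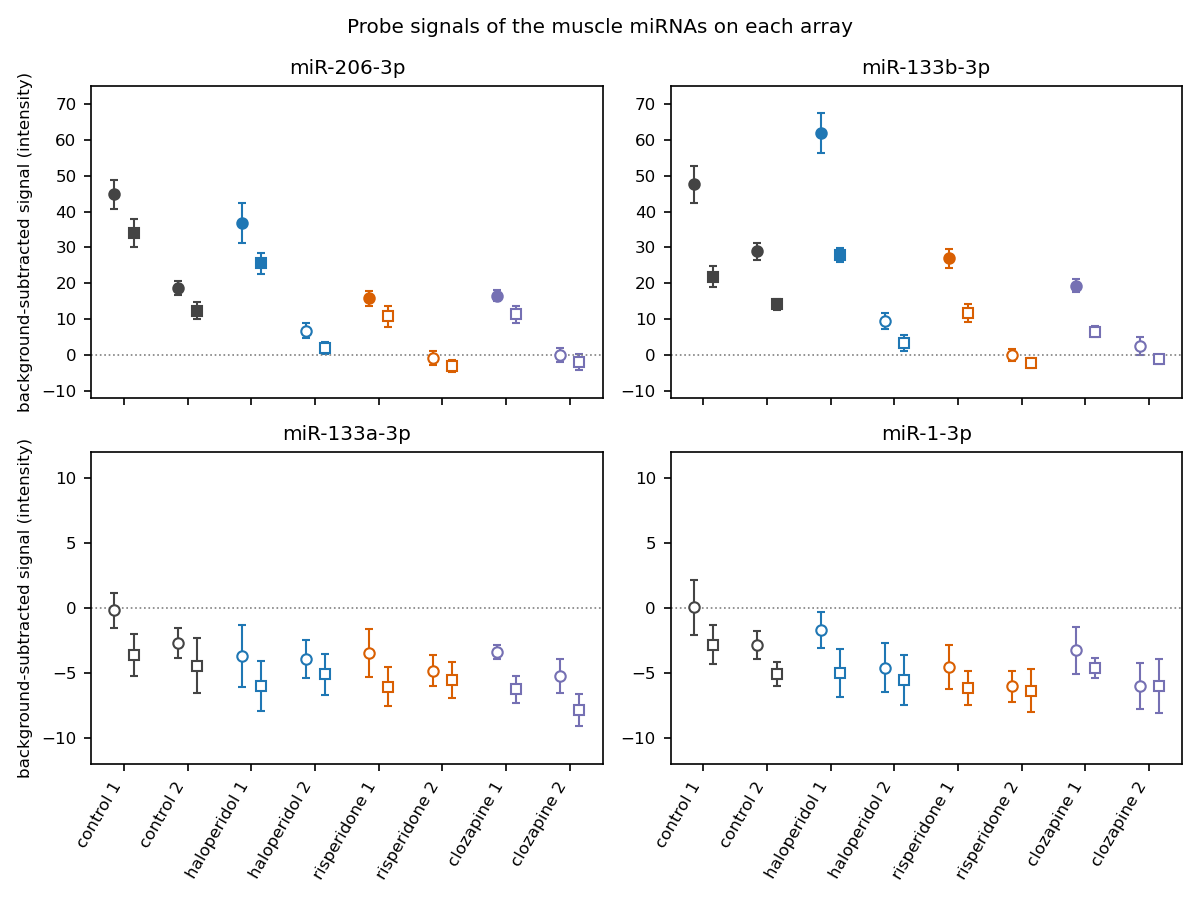
Background-subtracted signal (intensity, linear) of both probes of each muscle miRNA on each of the 8 arrays; points are means over 10 spots, bars the SD over spots, circles the brighter and squares the dimmer probe, filled where most spots were well above background. The miR-206-3p and miR-133b-3p probes read higher on replicate 1 than on replicate 2 in each group, while the miR-133a-3p and miR-1-3p probes stay near or below 0 on all 8 arrays, on a narrower axis.

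Over all arrays, 82 of 160 spots of miR-206-3p and 85 of 160 of miR-133b-3p were well above background, against 0 of 160 each for miR-133a-3p and miR-1-3p. The highest single spot was 1.60 for miR-133a-3p and 4.40 for miR-1-3p, and 7 and 6 spots were above 0. The summed miR-133a-3p signal was -4.0 and -7.1 in controls and between -12.8 and -8.6 on the 6 drug arrays. That of miR-1-3p was -2.9 and -8.1 in controls, and between -12.3 and -6.6 on the 6 drug arrays. Means of single probes ran from -7.79 to -0.15 for miR-133a-3p and from -6.33 to 0.09 for miR-1-3p. They lay around the per-probe median of the 1101 probes of miRNAs detected on no array, -5.79 to -2.46 over the arrays. Neither miRNA was measured above background in any group, so no fold change is given for them. The miR-133a-3p and miR-133b-3p RNAs differ by 1 base and read differently here; how far the probes of one also bind the other RNA was not tested.

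On the 2 arrays where both detected members were called negative, risperidone and clozapine replicate 2, their probes ranked between the percentiles 57.6 and 74.2 among the 1730 probes of the array. On the same 2 arrays the probes of miR-133a-3p and miR-1-3p ranked lower, between the percentiles 7.98 and 39.4. Their highest rank on any array was 57.3, for miR-1-3p on control replicate 1. These ranks set different probes side by side and are not levels. On replicate 2 of both risperidone and clozapine, no probe of miR-206-3p or miR-133b-3p had a spot well above background. The median of never detected probes was also taken as the background of each array. The unscaled miR-206-3p sum was then 16.7, 6.32 and 9.55 on replicate 2 of haloperidol, risperidone and clozapine, against 38.5 on control replicate 2. For miR-133b-3p it was 21.3, 8.04 and 12.9 against 49.8. Scaled by each array's 75th percentile, miR-206-3p was at 0.0174, 0.0161 and 0.0137 against 0.0402. The drug values of both members were at that setting's floor, -5.44 in log2.

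To compare groups, each sum was scaled by its own array's 75th percentile, floored at 0.0134 and taken to log2, so 0 is the 75th percentile and -6.22 the floor. The miR-206-3p level was -3.73 and -4.91 in controls, and on replicate 1 it was -4.57 under haloperidol, -5.36 under risperidone and -4.84 under clozapine. That of miR-133b-3p was -3.91 and -4.47 in controls, and on replicate 1 it was -4.03 under haloperidol, -4.82 under risperidone and -4.97 under clozapine. Replicate 2 of each drug sat at the floor for both members, although the miR-133b-3p sum on haloperidol replicate 2, 12.88, was just under the 12.90 that the floor equals on that array. A floored array has no order against another, and the floor hides spread, so standard errors may be too low. In bulk RNA, fewer cells that hold a miRNA and less of it per cell cannot be told apart.

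**Figure D2:**
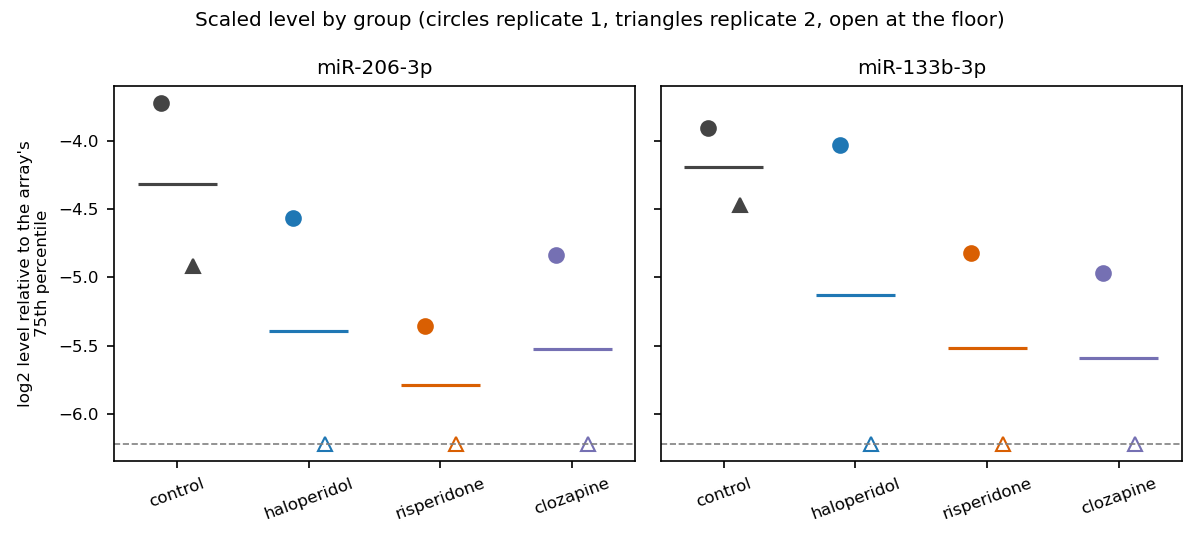
Log2 level of miR-206-3p and miR-133b-3p relative to the array's 75th percentile in each group; points are single arrays, bars the mean of 2, the dashed line the floor at -6.22. Both control arrays lie above the floor for both members, and replicate 2 of each drug lies at it.

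Haloperidol, a first-generation antipsychotic, was compared with no treatment first. The miR-206-3p level was -5.39 ± 1.17 with the drug and -4.32 ± 0.84 without (SD, n = 2 each), a log2 fold change of -1.07 (SE 0.80; 95% interval -3.08 to 0.93). By limma the adjusted p was 0.588 over 243 miRNAs. For miR-133b-3p the levels were -5.13 ± 1.55 and -4.19 ± 0.40, a log2 fold change of -0.94 (SE 0.90; 95% interval -3.19 to 1.32; limma adjusted p = 0.651). Arrays of the 2 groups overlapped for both members, while 78 of 243 miRNAs (32.1%) were lower with the drug without overlap. Both differences are within the spread between replicates, which includes the fall from replicate 1 to replicate 2 seen in all 4 groups. limma called 0 of 243 miRNAs, or 0%, with 16 (6.58%) at an unadjusted p under 0.05 and neither member among them. The miR-133b-3p value rests on haloperidol replicate 2: without that array it was 0.16, and that of miR-206-3p was -0.25. Without haloperidol replicate 1 they were -2.03 and -1.90.

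Within replicate 1 the haloperidol array lay 0.84 below control for miR-206-3p, and 0.13 below for miR-133b-3p, where the median of all tested miRNAs was -0.16. A difference as low or lower was found for 4.12% and 51.4% of the 243 miRNAs. These shares count the member itself. They describe a rank and test nothing: miR-206-3p was tested only because both control arrays detected it, which favours low ranks. Within replicate 2 the differences were -1.31 and -1.74, limited by the floor, with 0.823% and 0.412% as low or lower. The haloperidol array of replicate 1 thus read miR-133b-3p close to the control array of the same slide row. That of replicate 2 read lower, at the floor, though its detection call was positive.

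Risperidone, a second-generation drug, gave the lowest miR-206-3p mean. The level was -5.79 ± 0.61 against -4.32 ± 0.84 in controls (SD, n = 2 each), a log2 fold change of -1.47 (SE 0.80; 95% interval -3.47 to 0.54; limma adjusted p = 0.511). For miR-133b-3p it was -5.52 ± 0.99 against -4.19 ± 0.40, a log2 fold change of -1.33 (SE 0.90; 95% interval -3.58 to 0.93; limma adjusted p = 0.521). For both members the 2 risperidone arrays lay below the 2 control arrays, as did those of 80 of 243 miRNAs (32.9%). Neither passed: limma called 0 of 243, or 0%, and 21 (8.64%) had an unadjusted p under 0.05, neither member among them. Within replicate 1, where both arrays were above the floor, the difference was -1.63 for miR-206-3p and -0.91 for miR-133b-3p, against a median of -0.08. The shares as low or lower were 0.412%, which is miR-206-3p alone, and 3.70%, the member included. Both members were tested through groups other than risperidone, which favours such low ranks. Within replicate 2 the difference was -1.31 and -1.74 at the floor, against a median of -0.26. Leaving out risperidone replicate 2 moved the fold changes to -1.04 for miR-206-3p and -0.63 for miR-133b-3p, and leaving out replicate 1 moved them to -1.90 and -2.03.

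Clozapine, a second-generation drug with a broad receptor profile, gave -5.53 ± 0.98 for miR-206-3p, a log2 fold change of -1.21 from controls (SE 0.80; 95% interval -3.21 to 0.80; n = 2 each; limma adjusted p = 0.572). For miR-133b-3p it gave -5.59 ± 0.89, a log2 fold change of -1.40 (SE 0.90; 95% interval -3.66 to 0.85; limma adjusted p = 0.572). The clozapine and control arrays did not overlap for miR-133b-3p, as for 82 of 243 miRNAs lower with the drug (33.7%). They overlapped for miR-206-3p, since clozapine replicate 1 (-4.84) lay just above control replicate 2 (-4.91). limma called 0 of 243, or 0%, with 36 (14.8%) at an unadjusted p under 0.05 and neither member among them. Within replicate 1 the differences were -1.11 and -1.06, against a median of -0.13, and 2.47% and 3.29% of miRNAs were as low or lower. The members themselves are counted, and both were tested through groups other than clozapine, which favours such low ranks. Leaving out clozapine replicate 2 moved the fold changes to -0.52 for miR-206-3p and -0.78 for miR-133b-3p, and leaving out replicate 1 moved them to -1.90 and -2.03.

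**Figure D3:**
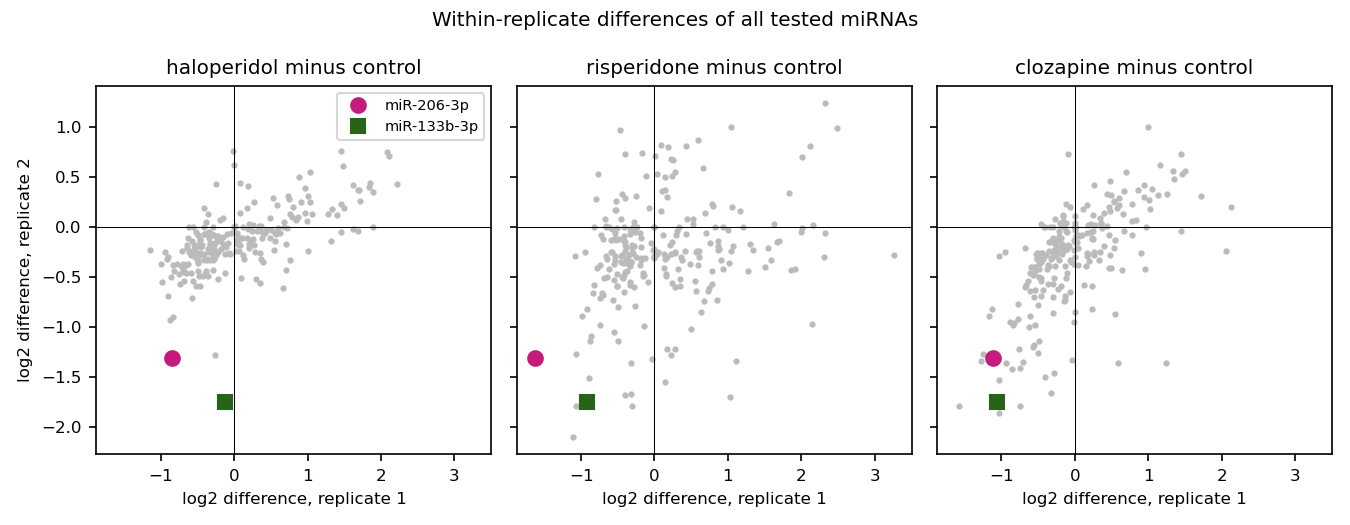
Difference in log2 level between each drug array and the control array of the same replicate, replicate 1 on the horizontal and replicate 2 on the vertical axis, for all 243 tested miRNAs (grey) and the 2 tested muscle miRNAs. miR-206-3p and miR-133b-3p lie below 0 on both axes in all 3 panels, miR-133b-3p with haloperidol at -0.13 in replicate 1; the replicate 2 values are limited by the floor.

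After scaling, both members lay below control in both replicates under all 3 drugs, miR-133b-3p by no more than the median miRNA in replicate 1 of haloperidol (-0.13 against -0.16). Before scaling that array was the higher, at 90.4 against 69.5 in control. Of all 243 tested miRNAs, 50.2%, 44% and 52.3% lay below control in both replicates under haloperidol, risperidone and clozapine. The direction itself is thus common on these arrays. The control group was also the only one in which miR-206-3p was detected on both arrays. So miR-206-3p entered the test only through the group where it was highest, which favours lower drug values. miR-133b-3p was detected on both arrays of the control and haloperidol groups, where its mean level was highest, and on 1 array each of risperidone and clozapine. Its entry into the test thus also favours lower values under risperidone and clozapine. The 3 comparisons share the 2 control arrays. Each drug is therefore set against the same control replicate 1, which held the highest miR-206-3p level of the 8 arrays. Without that array the miR-206-3p fold changes were -0.48, -0.87 and -0.61 in log2, and those of miR-133b-3p -0.65, -1.05 and -1.12. Without control replicate 2 they were -1.67, -2.06 and -1.80 for miR-206-3p and -1.22, -1.61 and -1.69 for miR-133b-3p. Replicate 2 minus replicate 1 was -1.19 for miR-206-3p and -0.57 for miR-133b-3p in controls, where the median of all tested miRNAs was -0.01. In the drug groups it lay between -1.65 and -0.86 for miR-206-3p and between -2.19 and -1.25 for miR-133b-3p, against medians of -0.23 to -0.05. A limma F test over the 4 groups gave an adjusted p of 0.849 for each member and called 0 of 243 (0%), with 8 (3.29%) at an unadjusted p under 0.05. Without control replicate 2, limma called 5, 6 and 7 of 243 miRNAs under haloperidol, risperidone and clozapine, neither member among them; the lone control array is then assumed to vary like the drug groups, whose spread alone enters the fit.

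Among the ways of scaling and of correcting background, normexp alone turned the sign of a comparison with control. Without scaling, with the percentile over all probes or with quantile normalization, all 6 fold changes against control stayed below 0, with medians over all tested miRNAs of -0.04, 0.35 and 0.42 for the percentile over all probes and 0.09, -0.64 and -0.55 without scaling. With a normexp background correction and an offset of 50, which pulls dim miRNAs together on each array, miR-206-3p was at -0.39, 0.20 and 0.76 and miR-133b-3p at -0.29, 0.24 and 0.76 under haloperidol, risperidone and clozapine. The median of all tested miRNAs was then -0.17, 0.38 and 0.76, against -0.15, -0.15 and -0.17 in the reported setting, so under risperidone both members lay below that median and under clozapine they lay at it. With the median of never detected probes as background, all 6 values stayed below 0, from -1.06 to -0.63.

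**Figure D4:**
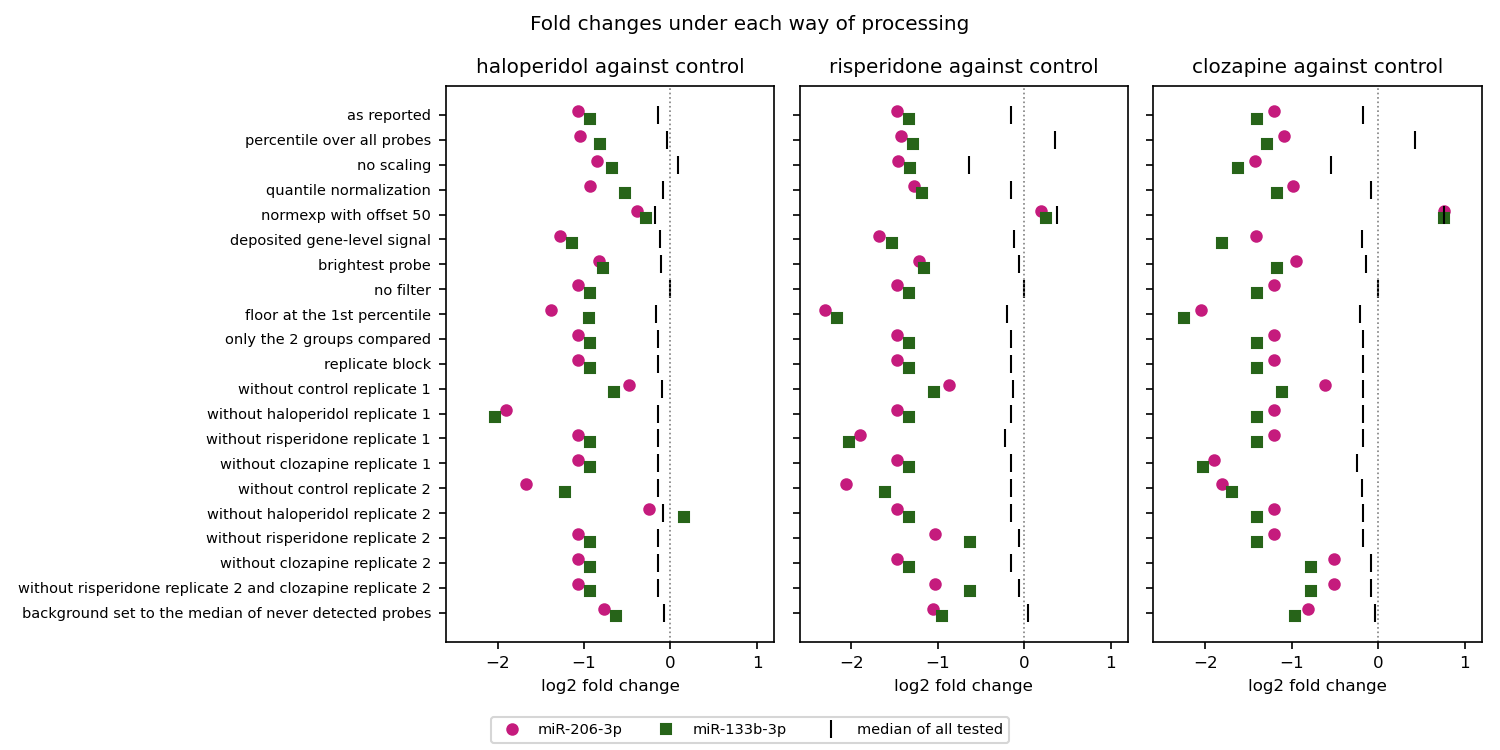
Log2 fold change of miR-206-3p (circles) and miR-133b-3p (squares) for each drug against control under each way of processing, with the median over the tested miRNAs (vertical ticks). The values lie below 0 except with normexp for risperidone and clozapine, where the ticks move to 0.38 and 0.76, and for miR-133b-3p without haloperidol replicate 2 (0.16).

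Doses differed between the drugs. Replicate 2 of each was at the floor for both members, so drug-to-drug differences there were 0. Differences between drug means thus rest on replicate 1 and were made small by the floor. Within replicate 1, risperidone minus haloperidol, clozapine minus haloperidol and clozapine minus risperidone were -0.79, -0.27 and 0.52 for miR-206-3p. For miR-133b-3p they were -0.79, -0.93 and -0.15, where haloperidol minus control was -0.13. By group mean, risperidone minus haloperidol was -0.39 for each member. The 95% intervals were -2.40 to 1.61 for miR-206-3p and -2.65 to 1.86 for miR-133b-3p. Clozapine minus haloperidol was -0.13 (-2.14 to 1.87) and -0.47 (-2.72 to 1.79). Clozapine minus risperidone was 0.26 (-1.74 to 2.27) and -0.07 (-2.33 to 2.18). limma gave an adjusted p of 1 for each of these 6 values and called 0 of 243 in each drug pair (0%), with 0 (0%) at an unadjusted p under 0.05 in the first pair, 3 (1.23%) in the second and 4 (1.65%) in the last. The intervals span several-fold differences in either direction, so they do not show that the drugs acted alike. By mean level the order for miR-206-3p was control, haloperidol, clozapine and risperidone, and for miR-133b-3p control, haloperidol, risperidone and clozapine. No neighbours in either order differed beyond the spread between replicates, which includes the fall from replicate 1 to replicate 2 seen in every group.

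The other arms of the 4 hairpins, usually the discarded strands, were detected on 0 arrays each: miR-206-5p, miR-133b-5p, miR-133a-5p and miR-1-5p. Of 6 further striated muscle miRNAs, encoded in myosin heavy chain introns, 2 were detected. miR-208a-5p was detected on 6 arrays and tested, at -5.62 and -5.40 in controls and -5.95 and the floor on replicate 2 of risperidone and clozapine, with log2 fold changes of -0.09, -0.16 and -0.29 under haloperidol, risperidone and clozapine. Its sister arm miR-208a-3p, the cardiac guide strand, was detected on 0 arrays, as were miR-208b-3p, miR-208b-5p and miR-499-3p. miR-499-5p, named after its values were seen, was detected on haloperidol replicate 1 alone.

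Of 14 miRNAs reported to favour myoblast differentiation, 12 were on the array and 10 were tested, and limma called 0 under each drug. The 2 brightest were miR-29a-3p, which targets collagens, at a mean log2 level of 4.11, and miR-24-3p, reported to act downstream of TGF-beta, at 4.05. The list's median log2 fold change was 0.13, 0.02 and 0.07 under haloperidol, risperidone and clozapine, with 4 of 10 below 0 each time. Of 6 reported to restrain it, 5 were on the array and tested, with 0 called, led by miR-125b-5p, which targets IGF-II, at 5.22 and miR-23a-3p at 4.14. The median of that list was -0.30, -0.28 and -0.23, with 4, 5 and 5 of 5 below 0. The medians over all tested miRNAs were -0.15, -0.15 and -0.17, so most tested miRNAs also lay below 0 under each drug. 

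Markers of other cells were read beside the members. The smooth muscle and mesenchyme list was detected for 4 of 5 miRNAs, with miR-145-5p on 0 arrays. Its summed scaled level was 2.18 to 2.66 in controls, 1.80 to 2.13 with haloperidol, 1.85 to 2.11 with risperidone and 1.86 to 2.09 with clozapine, lower in the drug groups as were the 2 members, and its part in the result was not tested. That sum is nearly all miR-199a-3p, at 2.10 and 2.54 in controls. Under haloperidol, risperidone and clozapine, miR-143-3p had log2 fold changes of -0.77, -0.53 and -0.77 and miR-214-3p of -0.46, -0.84 and -0.88. Those of miR-199a-3p were -0.29, -0.27 and -0.27, and those of miR-199a-5p 0.03, 0.05 and -0.36. limma called 0 of the list under each drug, and miR-143-3p was at the floor on replicate 2 of haloperidol and risperidone. The detection call of miR-214-3p was negative on replicate 2 of risperidone and clozapine, so its values there are near background. Of the erythrocyte and serum list, miR-144-3p was detected on 0 arrays and miR-451-5p on replicate 1 of haloperidol and risperidone. The summed level of that list was 0.00789 to 0.0167 on the 4 arrays of replicate 1 and at most 2.84e-05 on those of replicate 2; only haloperidol replicate 1 was above the floor of 0.0134, so no order of the replicates can be read. Of the leukocyte list 2 of 3 were detected on some array. Its summed levels were 0.0237 to 0.0278 in controls, 0.0182 to 0.0271 with haloperidol, 0.0267 to 0.0329 with risperidone and 0.0249 to 0.0276 with clozapine. The number detected was 0 on haloperidol replicate 1, risperidone replicate 2 and both clozapine arrays, so no order of the groups can be read. The neuronal miR-124-3p, the hepatocyte miR-122-5p and the 5 epithelial miRNAs were detected on 0 arrays. Of the endothelial list, miR-126a-3p was detected on all 8 arrays, and the list's summed level was 0.0818 to 0.117 in controls, 0.0816 to 0.115 with haloperidol, 0.0449 to 0.0946 with risperidone and 0.0627 to 0.0926 with clozapine. The oligodendrocyte miR-338-3p, also on all 8, was at a scaled level of 0.405 to 0.690 in controls, 0.920 to 1.24 with haloperidol, 0.873 to 1.44 with risperidone and 1.10 to 1.14 with clozapine, and its part in the result was not tested. The list's other marker, miR-219a-5p, was not matched under that name. The array's miR-219-5p and miR-338-5p, named after their values were seen, did not follow miR-338-3p throughout. For miR-219-5p the difference from control in replicate 1 was 1.69, 2.15 and 0.39 under haloperidol, risperidone and clozapine, and in replicate 2 it was -0.04, -0.97 and -0.19. For miR-338-5p, the other arm of the same hairpin, the log2 fold changes were -0.90, -1.17 and -1.26. Its replicate 2 difference from control was the same under risperidone and clozapine, -1.27, as where both drug arrays sit at the floor. The neural miR-9a-5p was detected on all 8. No list here holds a marker that defines the astrocytic lineage of a glioma.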

How the data were processed

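The authors' deposited spot-level files hold background-subtracted intensity values, spot and background medians and flags (unit other, 0 or 1, in the deposited files), made with Agilent Feature Extraction 10.7.3.1 per the file headers. The deposited gene-level files hold a summed intensity per miRNA, with 0.1 where it was called not detected. Scaling and floor are described with the results, and the floor is the 5th percentile of scaled detected values. The test took the 243 of 719 miRNAs whose detection call was positive in both replicates of some group. One limma model (version 3.58.1, R 4.3.3, lmFit and eBayes) covered the 4 groups (4 residual and 5.43 total degrees of freedom), two-sided, with Benjamini-Hochberg adjustment at 0.05. The code was tested on simulated data. Replicates are biological repeats by the submitters' design text. With 2 arrays a group, exact permutation p-values start at 0.333, so none was used. Normexp used spot medians, since the files used here hold no spot means. No spot was saturated (0). The number of arrays limits the precision. The members and lists were chosen with earlier results of these data known. The rule names the 4 members and, per list, the 2 brightest tested miRNAs and any called. It also names the miRNAs most like a member detected on all arrays, and no member was. Probe sequences were not used here.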

Additional observations from a re-analysis of the deposited data

How the results depend on the processing

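Neither member passed the threshold against control under any alternative run; limma's adjusted p ran from 0.0659 to 1. Calls stayed at 0 except for 1 (risperidone) and 2 (clozapine) with the replicate block, and 5, 6 and 7 without control replicate 2, so leaving out 1 array gave 0 to 5 calls under haloperidol, 0 to 6 under risperidone, and 0 to 7 under clozapine; an arm left with 1 array is assumed to vary like the other groups. The block gave miR-206-3p adjusted p of 0.200, 0.0716 and 0.0659. Replicate numbers were not taken as pairs, with 2 per comparison and no label of a shared day. Deviations of same-numbered arrays correlated at 0.16 to 0.71. The fall from replicate 1 to replicate 2, shared by all 4 groups for both members, thus counts as spread in the reported standard errors, intervals and p-values.

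These values changed sign. With normexp, where the median of all tested miRNAs was itself 0.38 and 0.76 against control, miR-206-3p was 0.20 (risperidone) and 0.76 (clozapine) against control, and 0.58 and 1.15 against haloperidol; miR-133b-3p was 0.24 and 0.76, then 0.53 and 1.04, and 0.51 for clozapine against risperidone. That last value was 0.010 with the percentile over all probes and 0.0088 with quantile normalization. Leaving out 1 array, miR-133b-3p under haloperidol ran from -2.03 to 0.16. Risperidone against haloperidol ran from -1.22 to 0.43 for miR-206-3p and -1.49 to 0.70 for miR-133b-3p, clozapine against haloperidol from -0.96 to 0.69 and -1.56 to 0.63, and clozapine against risperidone from -0.43 to 0.95 and -0.77 to 0.63. Without both replicate 2 of risperidone and of clozapine, chosen after seeing the data, risperidone against haloperidol was 0.04 and 0.31, and clozapine against haloperidol 0.56 and 0.16. With the floor at the 1st percentile the values against control lay between -2.31 and -0.94. Requiring detection on all 8 arrays left no member to test, and the fit of only the 2 groups compared gives no F test. Signals near background limit all drug replicate 2 values.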

Other observations

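miR-206-3p and miR-133b-3p varied together over the 8 arrays, with Pearson's r of 0.95 for the linear scaled levels and 0.94 for the unscaled signals. In an order drawn up after the values were seen, miR-133b-3p stood at rank 13 of the 242 other tested miRNAs by that r with miR-206-3p, and miR-206-3p at rank 2 with miR-133b-3p. The median r with all other tested miRNAs was 0.51 for miR-206-3p and 0.46 for miR-133b-3p. All points share the array's brightness and the slide row, and no p-value is given. The miRNAs closest to miR-206-3p by this measure were miR-674-3p (0.98), miR-100-5p (0.98) and miR-22-5p (0.98), and the closest to miR-133b-3p was miR-16-5p (0.96).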
